A study of Mus musculus with 48 samples.

Results

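The clustered protocadherin locus was taken as chromosome 18, 36920000 to 37860000, in the mouse build mm10, and its members were all peaks that touch this 940 kb stretch in the 22 peak lists of the series. There were 1278 such peaks of 1444924 in all: 272 with the FLAG antibody, 589 with the SMC3 antibody and 417 with the CTCF antibody. The locus was divided into Pcdha (up to 37200000), Pcdhb (37260000 to 37525000) and Pcdhg (from 37650000), and a peak was placed by its centre. The gene table gave 58 protocadherin genes here, 14 in Pcdha, 22 in Pcdhb and 22 in Pcdhg, among them the transcribed pseudogene Pcdhgb8.

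Clustered protocadherins are cell-surface adhesion proteins, best known from neurons, where the choice of which promoters are active gives single cells different surface identities. Most of the variable exons have a promoter of their own with a CTCF site, and CTCF and the ring-shaped cohesin complex, of which SMC3 is a core subunit, are known to hold chosen promoters in loops with distant enhancers. Each variable exon of Pcdha and Pcdhg is spliced to constant exons at the end of its cluster, whereas Pcdhb genes are separate single-exon genes. The C-type genes, at the end of Pcdha and Pcdhg, differ in their promoters, and several of them, like Pcdhb1, are known to lack the conserved promoter element that CTCF binds.

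All cells were E14Tg2a mouse embryonic stem cells of strain 129/Ola, carrying an auxin-inducible degron on endogenous CTCF and a FLAG-tagged, doxycycline-inducible Ctcf transgene, and the labels speak of derived clones without saying how many stand behind a genotype. The transgene was wild type (WT) or carried a single substitution, at arginine in R339Q, R342C, R377C, R377H and R448Q and at other residues in S354F, K365T, Q418R and H455R, all in the zinc-finger domain that reads DNA. These 10 genotypes received 500 µM indole-3-acetic acid (IAA), which triggers loss of endogenous CTCF, and 1 µg/ml doxycycline for 2 days, and each gave a FLAG list (transgene protein) and an SMC3 list (cohesin) by ChIPmentation, in which a transposase tags immunoprecipitated chromatin. The CTCF antibody, which does not tell the endogenous protein from the transgene's, gave a list in WT cells so treated and a list in untreated WT cells. Each list pools 2 replicates, so no value below has a spread between replicates, and differences between single genotypes have no p-value. Library depth cannot be read from these lists. Lists differed in length, from 3855 peaks in FLAG H455R to 30462 in FLAG R377C and from 42030 to 153647 for SMC3, and the number of members in a list moved with both length and genotype. Protocadherin genes are similar paralogs, and how reads that fit several of them were placed is not given in the sources used here.

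The CTCF antibody marked nearly every protocadherin promoter. In untreated WT cells 54 of the 58 genes had a peak reaching within 500 bp of the gene start, where 31.4% of 27025 genes outside chromosome 18 did, and in treated cells the count was again 54, against 22.1%. The 4 genes without a peak were Pcdhac2, Pcdhb1, Pcdhgc4 and Pcdhgc5 in both lists. The untreated list held 228 peaks in the locus, 41 in Pcdha, 82 in Pcdhb and 103 in Pcdhg, which is 14.6, 30.9 and 49 peaks per 100 kb. The treated list held 189, with 33, 68 and 86 in the same order. A treated peak overlapped 146 of the 228 untreated peaks (64%), against 56.9% over the whole list. Conversely 174 of 189 treated peaks had an untreated peak (91.7% over the list). Among untreated peaks above the 75th percentile of their list by strength, all 71 in the locus had a treated peak (43946 of 43957 elsewhere), and below the 25th percentile 15 of 50 did (30%, and 18% elsewhere). CTCF antibody peaks of the locus were up to 5151 bp wide, so a single peak can cover several FLAG peaks.

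FLAG peaks of the WT transgene were called at a subset of these promoters. The WT FLAG list held 15392 peaks, against 116973 in the treated and 175815 in the untreated CTCF antibody list. A gene start without a FLAG peak may therefore still have held the transgene protein. FLAG peaks reached the start of 22 of 58 genes (3.38% of genes outside chromosome 18): 4 of 14 in Pcdha, 8 of 22 in Pcdhb and 10 of 22 in Pcdhg. All 25 WT FLAG peaks of the locus overlapped a peak in both CTCF antibody lists. In Pcdha the genes were Pcdha3, Pcdha4, Pcdha6 and the C-type gene Pcdhac1. In Pcdhb they were Pcdhb2, Pcdhb3, Pcdhb4, Pcdhb6, Pcdhb7, Pcdhb8, Pcdhb10 and Pcdhb17. Within Pcdhg, 6 of the 7 Pcdhgb genes had a WT FLAG peak (Pcdhgb2 did not), and 4 of the 12 Pcdhga genes did (Pcdhga3, Pcdhga4, Pcdhga11 and Pcdhga12). Peak centres lay close to the gene starts, with a median of -78 bp relative to the low-coordinate end of the gene, and 3 of the 25 peaks lay away from any start.

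The strength of these peaks spanned the WT list. Strength is given here as a percentile, the rank of a peak by the caller's value within its own list, where 100 is the strongest. The 3 strongest in Pcdhg were at Pcdhgb7 (95.3), Pcdhgb6 (89.6) and Pcdhgb8 (88.2). The 3 strongest in Pcdhb were at Pcdhb3 (92.7), Pcdhb4 (86.6) and Pcdhb8 (73.8). The Pcdha peaks were at 79.4 for Pcdha4, 51.9 for Pcdha3, 51.9 for Pcdhac1 and 47.5 for Pcdha6. The weakest was the peak between Pcdha and Pcdhb, at a percentile of 0.39. Pcdhb and Pcdhg held strong and weak peaks side by side, down to 22.2 at Pcdhb2 and 7.13 at Pcdhga12, whereas the Pcdha peaks were all near the median of the locus (51.9) or above it.

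The mutants differed widely in how many protocadherin promoters they occupied. R377C had FLAG peaks at 36 of 58 gene starts (4.92% of genes outside chromosome 18), K365T at 33 (3.13%), Q418R at 33 (8.08%) and S354F at 32 (5.64%), all more than the 22 of WT. R448Q had 25 (3.49%) and R377H 21 (2.89%). R342C had 11 (2.63%), R339Q 2 (5.64%) and H455R 1 (1.19%). R339Q was at 2 gene starts here although its whole list held 18808 peaks, more than the 15392 of WT. In the plot of gene starts by list, the occupied genes of R342C, R339Q and H455R were all genes that WT also occupied, whereas R377C, K365T, Q418R and S354F added 14, 17, 16 and 13 genes to those of WT.

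**Figure D1:**
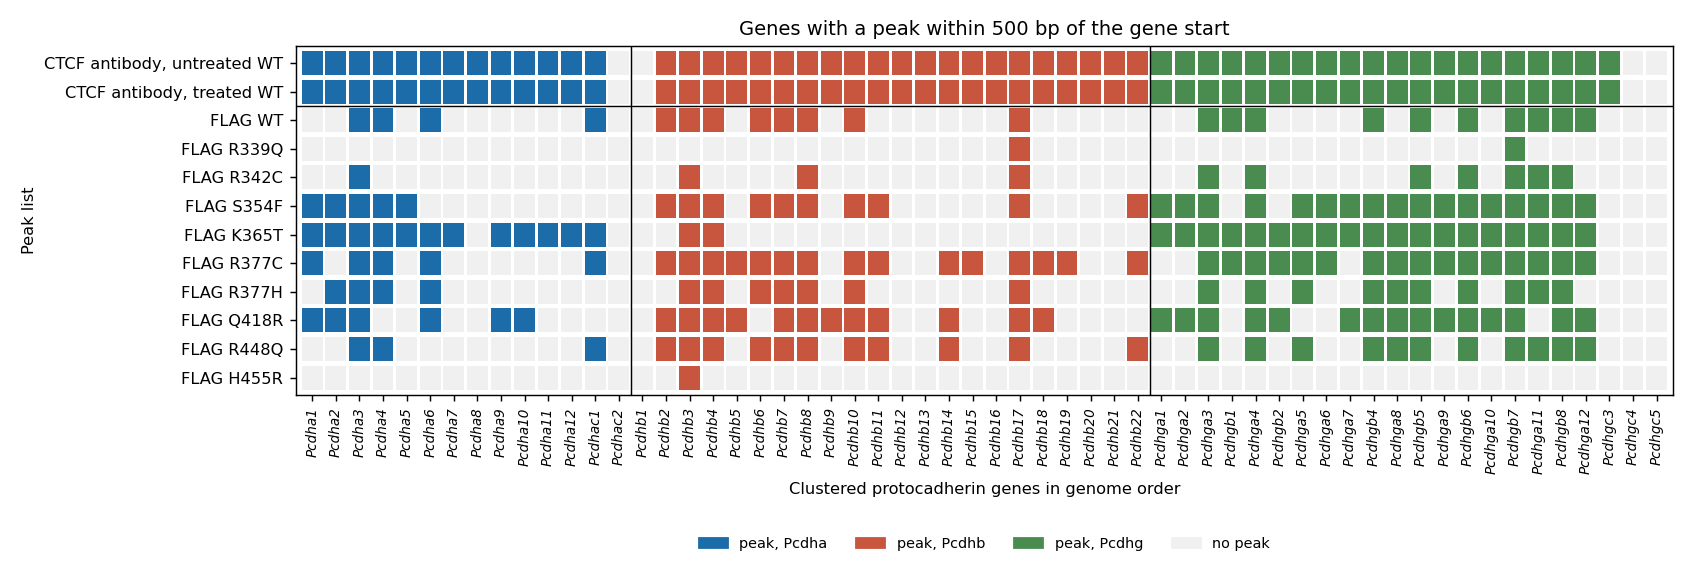
Each column is 1 of the 58 clustered protocadherin genes in genome order, each row a pooled peak list, and a coloured cell marks a peak reaching within 500 bp of the gene start (blue Pcdha, red Pcdhb, green Pcdhg). The CTCF antibody rows are filled at 54 genes, FLAG K365T at 12 of 14 Pcdha genes but 2 of 22 Pcdhb genes, and FLAG H455R at Pcdhb3 alone.

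K365T had the most uneven pattern across clusters. Its FLAG peaks were at 12 of 14 Pcdha genes and at 19 of 22 Pcdhg genes, but at 2 of 22 Pcdhb genes, Pcdhb3 and Pcdhb4. The Pcdha genes were every alternate gene except Pcdha8, together with Pcdhac1, and 8 of the 12 had no WT peak (Pcdha1, Pcdha2, Pcdha5, Pcdha7, Pcdha9, Pcdha10, Pcdha11 and Pcdha12). Pcdha7, Pcdha11 and Pcdha12 had a FLAG peak at the gene start in no other list. Several of these peaks were strong in the K365T list, with percentiles of 98.2 at Pcdha10, 94.9 at Pcdha3, 93 at Pcdha1 and 73.6 at Pcdha12, and others were weak, with 24.8 at Pcdha7. Of the 8 Pcdhb genes with a WT peak, Pcdhb2, Pcdhb6, Pcdhb7, Pcdhb8, Pcdhb10 and Pcdhb17 had none in K365T. In Pcdhg, K365T was at all 12 Pcdhga and all 7 Pcdhgb genes. At Pcdha4 the K365T peak lay at the start but did not overlap the WT peak, whose centre was 628 bp further on.

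S354F, R377C and Q418R added genes in other parts of the locus. S354F occupied all 12 Pcdhga genes, against 4 in WT, and 10 of 22 Pcdhb genes, against 8. Its Pcdha peaks were at the first 5 genes, Pcdha1 to Pcdha5. R377C occupied every gene that WT did and 7 more in Pcdhb (Pcdhb5, Pcdhb11, Pcdhb14, Pcdhb15, Pcdhb18, Pcdhb19 and Pcdhb22), which made 15 of 22, the highest count of any FLAG list in Pcdhb. Q418R occupied 12 Pcdhb genes, 6 Pcdha genes and 15 Pcdhg genes. R377H, with another residue at the position that R377C changes, occupied 21 genes to the 36 of R377C; these lists held 16473 and 30462 peaks. R448Q, at 25 genes, shared 20 of them with WT and added Pcdhb11, Pcdhb14, Pcdhb22, Pcdhga5 and Pcdhga8.

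By gene, occupancy ranged from 9 of the 10 FLAG lists to none. Pcdhb3 and Pcdhgb7 were each in 9 lists: Pcdhb3 lacked a peak in R339Q, and Pcdhgb7 lacked one in H455R. Pcdha3, Pcdhb17, Pcdhga3, Pcdhga4, Pcdhgb5, Pcdhgb6 and Pcdhgb8 were each in 8. No FLAG list had a peak at the start of 11 genes (Pcdha8, Pcdhac2, Pcdhb1, Pcdhb12, Pcdhb13, Pcdhb16, Pcdhb20, Pcdhb21, Pcdhgc3, Pcdhgc4 and Pcdhgc5), and 7 of these had a CTCF antibody peak in untreated cells. The median number of FLAG lists per gene was 4.5 in Pcdhg, 2.5 in Pcdhb and 2 in Pcdha.

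Pcdhb3 and Pcdhgb7 show how strength varied at the 2 most widely occupied promoters. At Pcdhb3 (gene span 37300799 to 37304585) the percentile was 92.7 in WT, 92.9 in R448Q, 88.7 in Q418R, 88.4 in R377H, 87.7 in R377C, 71.2 in R342C, 70.5 in K365T, 64.8 in S354F and 40.2 in H455R. This was the only FLAG peak of H455R in the locus. At Pcdhgb7 (37751619 to 37841870) it was 95.3 in WT, 99 in K365T, 98.2 in S354F, 97.9 in Q418R, 95.2 in R377C, 95.2 in R448Q, 93.9 in R342C, 93.8 in R377H and 51.8 in R339Q. Pcdhgb7 was thus near the top of every list that held it apart from R339Q. Pcdhb17, the other WT site kept by R339Q, had percentiles of 46.3 in WT, 12.1 in R339Q, 19.7 in R342C, 9.41 in S354F, 71.9 in R377C, 57.9 in R377H, 57.4 in Q418R and 57.9 in R448Q.

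The next comparison asked how many WT FLAG peaks each mutant kept, counting a WT peak as kept where a mutant peak overlapped it by at least 1 bp, and set the locus beside the whole list. R377C kept 24 of 25 (96%, 95% Wilson interval 80.5 to 99.3), with 89.6% over all WT FLAG peaks. S354F kept 22 (88%, 70 to 95.8; 86.2% over all) and R448Q kept 21 (84%, 65.3 to 93.6; 75.2% over all). Q418R kept 19 (76%, 56.6 to 88.5; 59.2% over all), R377H kept 18 (72%, 52.4 to 85.7; 71.8% over all) and K365T kept 16 (64%, 44.5 to 79.8; 52.1% over all). R342C kept 12 (48%, 30 to 66.5), below the 72.2% over all. R339Q kept 2 (8%, 2.22 to 25), below its 53.1% over all, and H455R kept 1 (4%, 0.71 to 19.5), with 10.5% over all. These intervals cover counting error over peaks only.

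**Figure D2:**
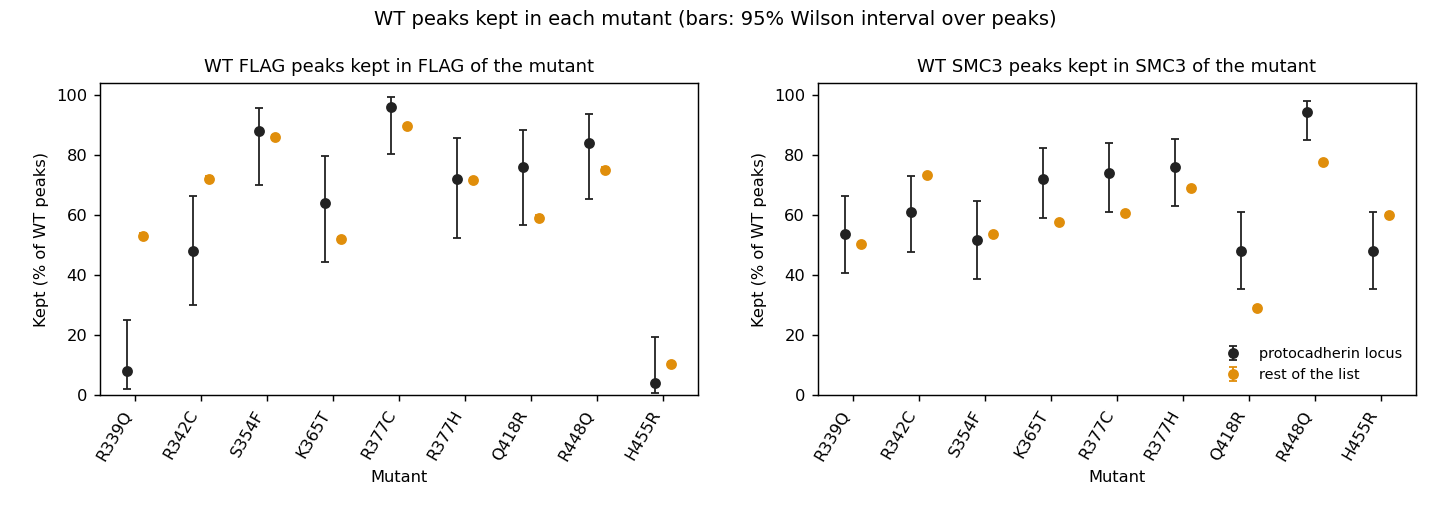
Points give the percent of WT peaks that a mutant list overlaps by at least 1 bp, for the protocadherin locus (black) and the rest of the list (orange), with FLAG on the left and SMC3 on the right; bars are 95% Wilson intervals over peaks. For FLAG the locus lies far below the rest in R339Q (8% against 53.2%) and below it in R342C (48% against 72.2%), and for SMC3 it lies above the rest in R448Q (94.4% against 77.8%) and Q418R (48.1% against 29.2%).

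Over the 9 mutants no difference between the locus and the rest of the genome passed the test. The kept percent averaged 60 in the locus and 63.3 elsewhere, so the locus minus the rest was -3.34 percentage points with an SD of 19.7 over 9 mutants (two-sided p = 0.668 by exact permutation of signs, and 0.835 after Benjamini-Hochberg adjustment over 5 tests), and the locus was higher in 6 mutants and lower in 3. Without R339Q, the mutant with the lowest difference (-45.2), the mean turned to 1.9. In the 940 kb on either side of the locus, R339Q kept 12 of 21 WT FLAG peaks and R342C kept 16 of 21, and with these neighbours as the reference the mean difference was -11.4 (exact permutation p = 0.0234). The mutants share 1 WT list, so their values are not independent of it.

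By cluster, R339Q kept 0 of 4 WT FLAG peaks in Pcdha, 1 of 8 in Pcdhb and 1 of 12 in Pcdhg, so few peaks remained in any cluster. K365T kept 3 of 4, 2 of 8 and 11 of 12. S354F kept 2 of 4, 8 of 8 and 11 of 12, and R448Q kept 3 of 4, 8 of 8 and 10 of 12. R342C kept 2 of 4, 3 of 8 and 7 of 12. No difference between clusters passed the test over the 9 mutants: Pcdha minus Pcdhb gave -9.72 percentage points (SD 29.2, exact sign-flip permutation p = 0.414, adjusted 0.69), Pcdha minus Pcdhg -11.1 (SD 15, p = 0.0781, adjusted 0.391) and Pcdhb minus Pcdhg -1.39 (SD 27.3, p = 0.953, adjusted 0.953). With 4, 8 and 12 WT peaks in the clusters, 1 peak moves these shares by a large step. Without K365T, the mean of Pcdhb minus Pcdhg turned to 6.77.

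No WT FLAG peak of the locus was kept by all 9 mutants (0 of 25; 5.04% over the WT list). The peaks at Pcdhgb7 and Pcdhb3 were kept by 8 (2 of 25 in at least 8 mutants; 31.2% over the list), and next came 7 mutants for several, the strongest of them Pcdhgb6. At the other end 4 of 25 were kept by at most 3 mutants (20.1% over the list). They were the weak peak between Pcdha and Pcdhb (kept by S354F and Q418R), Pcdhgb1 (K365T and R377C), Pcdhac1 (K365T, R377C and R448Q) and a peak inside Diaph1, past the end of Pcdhg, at 37852182 to 37852360 (S354F, R377C and R448Q).

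Merging overlapping FLAG peaks of the 10 lists gave 81 sites, 25 in Pcdha, 25 in Pcdhb, 30 in Pcdhg and 1 between Pcdha and Pcdhb. WT FLAG peaks were in 25 of these sites, and 33 sites came from a single list. Q418R gave 17 of the single-list sites, K365T 6 and R377C 5. The untreated CTCF antibody list covered 79 of the 81 sites, and the list of treated WT cells covered 76. Nearly all places with a mutant FLAG peak but no WT FLAG peak thus had CTCF antibody peaks in WT cells, treated cells included. The sites outside both lists were a Q418R peak near Pcdha9 and an R342C peak near the constant end of Pcdha. By list, the locus peaks at untreated CTCF peaks were 25 of 25 in WT (91.2% over its list), 43 of 43 in S354F (95.3%), 45 of 45 in R377C (90.3%), 37 of 37 in K365T (83.8%), 28 of 28 in R448Q (83.1%) and 22 of 22 in R377H (90.1%). In Q418R they were 51 of 52, against 66.2% over its list, and in R342C 13 of 14 (88.5%). All 5 peaks of R339Q (84.5% over its list) and the single peak of H455R (53.3%) were at such peaks too.

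Sites without a WT FLAG peak but with one in at least 5 mutants were at Pcdhga5 and Pcdhga8. At Pcdhga5 the percentile was 82.2 in K365T, 76.5 in R377C, 66.4 in S354F, 54.6 in R377H and 19.8 in R448Q. At Pcdhga8 it was 84.7 in K365T, 75.9 in S354F, 61.4 in R377C, 27.9 in R377H, 25.7 in Q418R and 19.6 in R448Q. Both promoters had CTCF antibody peaks in treated and untreated WT cells. The Pcdhga8 site had a WT SMC3 peak, and the Pcdhga5 site had SMC3 in no list.

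Most FLAG peaks sat just before or at the gene start, as in WT, and R339Q was the exception. Of its 5 locus peaks 2 reached a gene start (Pcdhb17 and Pcdhgb7), and 3 were centred 2444, 2439 and 2207 bp after the starts of Pcdhb3, Pcdhb10 and Pcdhb14, inside the gene spans. The Pcdhb3 and Pcdhb14 sites were in no other FLAG list, while the Pcdhb10 site also had peaks in R342C and S354F. Their percentiles in the R339Q list were 58.5, 69 and 45.2, each above that of the Pcdhb17 promoter peak (12.1). All 5 overlapped CTCF antibody peaks of treated and untreated cells. Q418R also had many peaks off the starts, 17 of 52, and 6 of these were centred 1 to 3 kb after a start. In R448Q, 26 of 28 peaks reached a start, and in R377H 21 of 22 did.

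**Figure D3:**
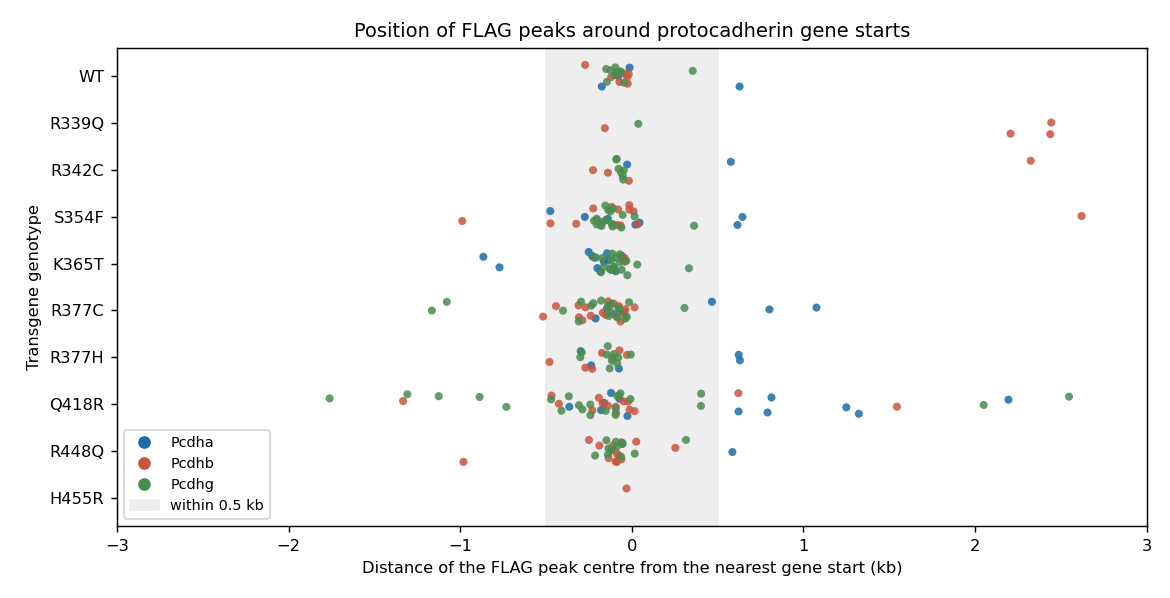
Each point is a FLAG peak of the locus, placed by the distance of its centre from the nearest protocadherin gene start in kb (points beyond 3 kb are not drawn; vertical scatter within a row is for visibility), with a row per genotype and colours by cluster; the grey band is 0.5 kb either side. WT peaks gather in the band, and 3 of the 5 R339Q peaks lie more than 2 kb after a Pcdhb start.

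Cohesin was spread over the locus in another way than the transgene protein. WT SMC3 gave 54 peaks, 4 in Pcdha, 5 in Pcdhb, 1 between them and 44 in Pcdhg. All 10 SMC3 lists had most of their locus peaks in Pcdhg, with the highest share in S354F (47 of 52) and the lowest in R448Q (63 of 86). In Pcdhb the SMC3 counts ran from 1 in S354F and in H455R to 12 in R448Q, and in Pcdha from 2 in R342C and in H455R to 8 in K365T and in R448Q. These counts are not scaled to list length. The R448Q list was the longest SMC3 list, with 153647 peaks against 71962 in WT. The whole locus held 0.056% of the R448Q list and 0.075% of the WT list. The genotypes with the fewest FLAG peaks still had SMC3 here: H455R had 1 FLAG peak and 40 SMC3 peaks, and R339Q had 5 and 59. As a share of the SMC3 list, however, the locus held 0.0407% in H455R and 0.0621% in R339Q, against 0.075% in WT.

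**Figure D4:**
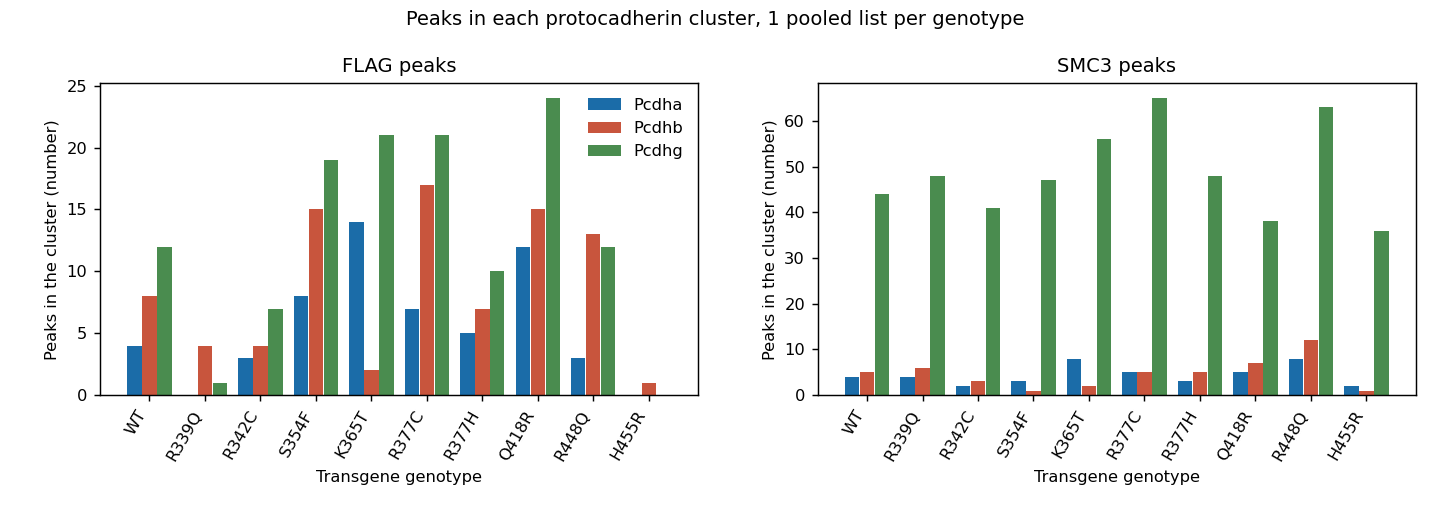
Bars give the number of FLAG (left) and SMC3 (right) peaks in Pcdha (blue), Pcdhb (red) and Pcdhg (green) for each transgene genotype, 1 pooled list each, with different vertical scales. FLAG peaks run from 1 in H455R to 52 in Q418R over the locus, while SMC3 peaks stay between 40 and 86 and lie mostly in Pcdhg. Counts are not scaled to the length of the lists.

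SMC3 was at the start of 20 of 58 genes in WT, where 23.1% of genes outside chromosome 18 had one. The counts were 12 in R339Q (24.9%), 12 in R342C (34.7%), 16 in S354F (24%), 24 in K365T (30%), 18 in R377C (31.5%), 19 in R377H (38.4%), 22 in Q418R (9.12%), 29 in R448Q (46.4%) and 12 in H455R (31%). As a share of 58 genes, Q418R (37.9%), K365T (41.4%) and WT (34.5%) stood above the background of their lists. R342C and H455R (20.7% each) stood below it. The other lists lay closer to their background: S354F (27.6%) and R448Q (50%) slightly above, R339Q (20.7%) and R377H (32.8%) slightly below. R377C (31%) was nearly at its background. These differences were not tested. Pcdhga3, Pcdhgb5, Pcdhgb6, Pcdhgb7, Pcdhgb8 and Pcdhb17 had SMC3 at the start in all 10 lists. At Pcdhb17 the 2 genotypes without a FLAG peak, K365T and H455R, were among them. K365T had SMC3 at 6 of the 12 alternate Pcdha genes, all 6 with a K365T FLAG peak, and WT had it at 1, Pcdha4.

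The share of FLAG peaks of the locus that overlapped SMC3 of the same genotype differed between lists. In WT, 17 of 25 FLAG peaks of the locus overlapped WT SMC3 (81.2% over the list). In S354F 13 of 43 did (59.1% over its list), and they were 0 of 8 in Pcdha, 0 of 15 in Pcdhb, 12 of 19 in Pcdhg and the 1 peak between Pcdha and Pcdhb. In R377C 16 of 45 did (47.1%), in Q418R 24 of 52 (39.6%) and in K365T 22 of 37 (78.5%). R342C had 9 of 14 (77.2%), R377H 13 of 22 (69.9%), R339Q 3 of 5 (58.7%) and H455R 0 of 1 (46.3%). R448Q had 22 of 28 (76%).

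WT SMC3 peaks of the locus were kept by mutants to differing degrees. R448Q kept 51 of 54 (94.4%, 84.9 to 98.1; 77.8% over the WT list), R377H 41 (75.9%; 69% over all), R377C 40 (74.1%; 60.7%) and K365T 39 (72.2%; 57.8%). R342C kept 33 (61.1%; 73.3%), R339Q 29 (53.7%; 50.5%), S354F 28 (51.9%; 53.7%), Q418R 26 (48.1%; 29.3%) and H455R 26 (48.1%; 60.2%). Over the 9 mutants the locus minus the rest was 5.28 percentage points (SD 11.9, exact sign-flip permutation p = 0.211, adjusted 0.527), higher in 6 and lower in 3, so no difference passed the test. With the comparison standardised over deciles of WT peak strength it was 0.54 (exact permutation p = 0.895). The peak names of the SMC3 lists carry tags that differ between genotypes (b1 in WT and 5 mutants, b2 in R339Q, b3 in Q418R, and b1 with b2 in S354F and R377C). Restricted to the 5 mutants whose lists carry b1 only, it was 2.76 (exact permutation p = 0.688, where 0.0625 is the smallest that 5 mutants allow). What the tags mean is not given in the sources used here, and their part in the result was not tested.

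By cluster, 12 of the 54 WT SMC3 peaks were kept by all 9 mutants (17.1% over the list), and 11 of them were among the 44 in Pcdhg. None of the 4 in Pcdha and none of the 5 in Pcdhb was. With so few peaks, none is close to what the 17.1% of the whole list would give, so no contrast between clusters can be read from it. Among the 11 were the promoters of Pcdhga3, Pcdhgb5, Pcdhgb6, Pcdhgb7 and Pcdhgb8, and a peak just after the start of Pcdhga12. At these 5 promoters R339Q had FLAG only at Pcdhgb7 and H455R at none, and both had SMC3 at each. The Pcdhb promoters with WT SMC3 (Pcdhb3, Pcdhb6, Pcdhb8, Pcdhb17 and Pcdhb22) all had it in R448Q, and none of the 5 WT peaks was overlapped in S354F or R339Q, although SMC3 peaks beside the WT peaks reached the start of Pcdhb17 in both and of Pcdhb3 in R339Q. In H455R only Pcdhb17 had it, and SMC3 at Pcdhb3, the site of the H455R FLAG peak, was not found.

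**Figure D5:**
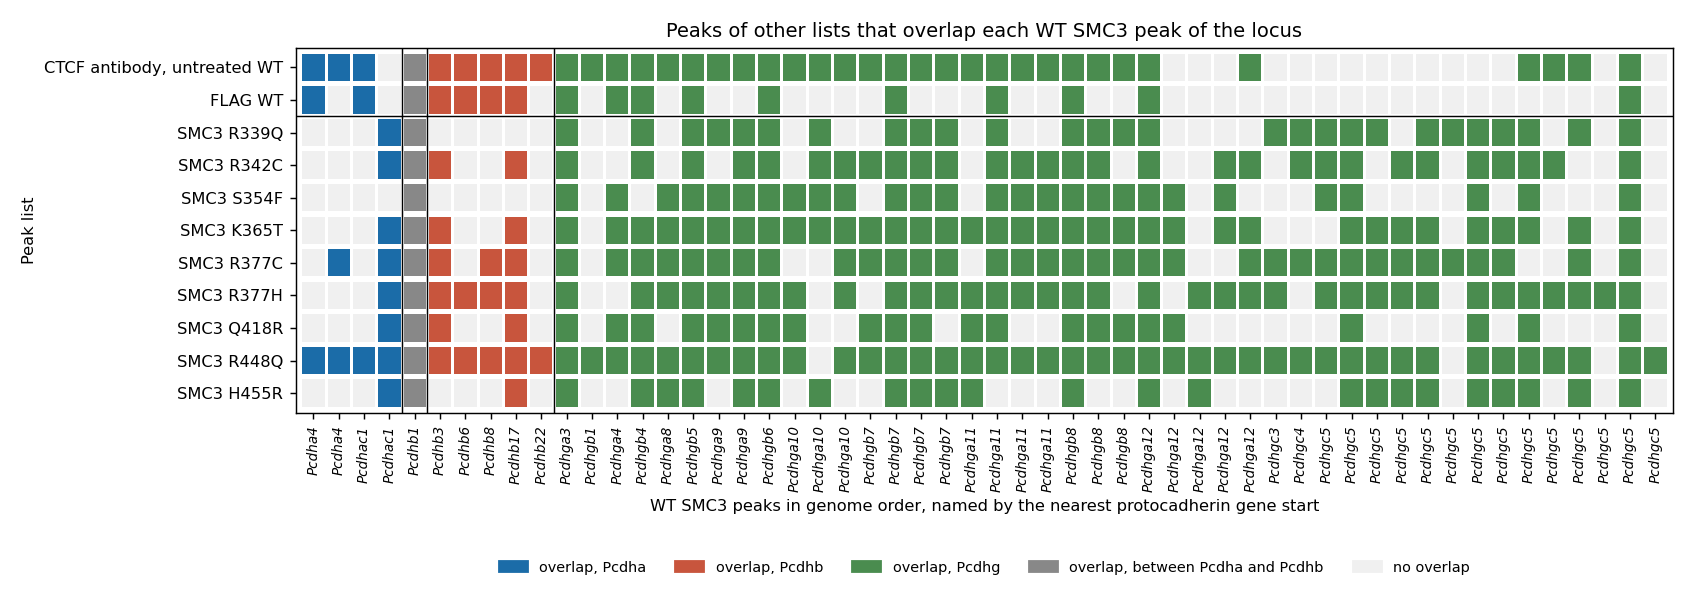
Each column is 1 of the 54 WT SMC3 peaks of the locus in genome order, named by the nearest protocadherin gene start, and coloured cells mark an overlapping peak in the CTCF antibody list of untreated cells, in WT FLAG and in the SMC3 list of each mutant. Columns filled in all 9 mutant SMC3 rows are 11 in Pcdhg and the grey column between Pcdha and Pcdhb, while S354F and R339Q are empty over the 5 Pcdhb peaks.

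Among the WT FLAG peaks, SMC3 could be set beside the fate of FLAG in each mutant. In R339Q the 23 WT FLAG peaks that were not kept included 15 with WT SMC3, and 9 of these had SMC3 in R339Q, beside 1 of 2 where FLAG was kept. In H455R 24 were not kept, 16 of them with WT SMC3, and 10 of these had SMC3 in H455R, beside 0 of 1 where FLAG was kept. In R342C 13 were not kept, 6 with WT SMC3, and 4 of these had SMC3 in R342C, beside 8 of 11 where FLAG was kept. In K365T SMC3 was at 10 of 11 WT SMC3 sites where FLAG was kept and at 3 of 6 where it was not. In Q418R it was at 11 of 12 and 2 of 5, and in R448Q at 16 of 16 and 1 of 1. In R377H it was at 11 of 13 and 3 of 4, in R377C at 13 of 16 and 1 of 1, and in S354F at 9 of 16 and 0 of 1. Over the whole WT FLAG list, whatever became of FLAG, SMC3 remained at 78% of the peaks with WT SMC3 in R339Q, 96.6% in R342C, 81.4% in S354F, 89.9% in K365T and 87.3% in R377C. It remained at 91.3% in R377H, 74.1% in Q418R, 97.9% in R448Q and 77.9% in H455R.

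SMC3 in Pcdhg fell into 2 stretches that differed in their overlap with CTCF; the division, by whether the nearest gene start is a Pcdhga or Pcdhgb gene or a C-type Pcdhgc gene, was chosen after the values were seen. In WT, 28 SMC3 peaks lay along the Pcdhga and Pcdhgb genes, 25 of them at a CTCF antibody peak of untreated cells, and 16 lay along Pcdhgc3, Pcdhgc4, Pcdhgc5 and beyond, 4 of them at one (47.2% over the WT SMC3 list). In every mutant list, too, the share at CTCF was higher along the Pcdhga and Pcdhgb genes, as with 34 of 35 against 5 of 21 in K365T and 31 of 35 against 8 of 28 in R448Q. FLAG peaks of the same genotype overlapped at most 1 SMC3 peak of the Pcdhgc stretch in any list. Among the 16 WT peaks there, R448Q kept 14, R377H 13, R339Q 12 and R377C 12, while S354F kept 5 and Q418R 4. Along the Pcdhga and Pcdhgb genes R448Q kept 27 of 28, K365T 26, S354F 22, Q418R 18, R339Q 15 and H455R 14. Q418R had 6 SMC3 peaks in the Pcdhgc stretch and 32 in the other, and its list, at 42030 peaks, was the shortest of the SMC3 lists.

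The 3 WT FLAG sites away from any protocadherin gene start differed in cohesin. The site between Pcdha and Pcdhb, at 37218303 to 37218461, lay in no protocadherin span and had FLAG in WT, S354F and Q418R, yet its WT SMC3 peak was at a percentile of 98.9 and SMC3 was present in all 10 lists. The site inside Diaph1, a formin gene that borders Pcdhg, had FLAG in WT, S354F, R377C and R448Q, and its WT SMC3 peak, at a percentile of 96, was likewise found in all 10 lists. The WT FLAG peak at 37655505 to 37655699, centred at -6173 bp relative to the start of Pcdhga1, was the reverse case: S354F, K365T, R377C and Q418R had FLAG there, WT SMC3 did not overlap it, and of the mutants only K365T had SMC3 on it. All of these sites had CTCF antibody peaks in treated and untreated WT cells.

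Non-clustered protocadherin genes, which lie elsewhere in the genome as single genes, were read for comparison. Of 12 such genes, 3 had WT FLAG peaks within 10 kb (Pcdh10 with 1, Pcdh15 with 2 and Pcdh1 with 1). R342C, S354F and R377C kept all 4 of these peaks, K365T and R448Q kept 3, R339Q and R377H 2, Q418R 1 and H455R none. With 4 peaks, these shares were not compared further.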

How the data were processed

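ChIPmentation peak lists of 22 of the 24 groups of 2 replicates were used; FLAG in untreated WT cells and IgG were not analysed here. The submitters' processing notes name mm10 and, as tools, deepTools, MACS2, Bowtie2 and Trim Galore, with no version or setting. A list pools replicates 1 and 2, per the labels. In 9 of 10 FLAG lists the replicate numbers in the peak names are not 1 and 2, and in 6 of 10 genotypes FLAG and SMC3 names hold different library codes, so lists were assigned by title alone. The FLAG and SMC3 files of Q418R have the same number of lines (42030) but share 0 intervals. The value deposited for a peak is a caller's score, used here only for ranks within a list. Intervals that FLAG lists give once per summit were merged, keeping the highest value. Between 1.3% and 5.26% of the running peak numbers are missing from the lists. Some peaks may have been removed by a filter, but the sources used here state none. In the locus no FLAG number was missing, but 7 other lists lacked numbers there. They were both CTCF antibody lists and SMC3 in R339Q, R342C, R377C, R448Q and H455R.

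Overlaps (at least 1 bp) and Wilson intervals were computed with scipy 1.17.1, pandas 2.3.3, numpy 2.4.6 and Python 3.11.15; overlaps were checked against bedtools 2.31.1 and tested on simulated lists, and figures were drawn with matplotlib 3.10.9. Means over 9 mutants of a difference between 2 regions were tested by exact permutation of signs, two-sided (512 flips), with Benjamini-Hochberg adjustment over 5 tests at 0.05. Gene spans are those of RefSeq on GRCm38.p6, given without strand; a gene start is the low-coordinate end of the span. All 58 genes came from that table. The background of 27025 genes came from RefSeq promoter coordinates, which held none on chromosome 18, so the planned motif search in promoters was not run. Named sites are the 3 strongest WT FLAG peaks per cluster, those kept in most and fewest mutants, every WT peak kept in H455R or R339Q, FLAG sites in at least 5 mutants without WT, and sites between clusters; other named genes were chosen after their values were seen. The locus, lists and tests were chosen with earlier results of these data known.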

Additional observations from a re-analysis of the deposited data

How the results depend on the processing

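No paired analysis was possible because each list pools both replicates. The 5 tests and the kept percents of the locus were repeated under other settings. A test value counted as unchanged if its sign and its side of the 0.05 threshold stayed, whatever its size. A percent counted as unchanged if it stayed in the Wilson interval of the main value. By these rules 105 values were unchanged, 37 percents moved, 6 test values turned in sign and 4 passed the threshold. The cause was not tested. The p-values here are not adjusted. For FLAG, locus minus rest turned to 0.134 percentage points with the upper 50% of each list and to 2.63 with untreated CTCF peaks as the reference, ranged from -5.85 to 1.9 when each mutant was left out, and was -11.4 with the flanks. For SMC3, it was 8.9 (exact permutation p = 0.0469) with the upper 50%, was 0.54 over deciles of strength, turned to -3.66 at SMC3 peaks with CTCF, and ranged from 3.58 to 7.46 when each mutant was left out. Pcdha minus Pcdhg was -51.1 (exact permutation p = 0.0156) with equal numbers of top peaks. At that setting Pcdha4 (percentile 79.4) was the only WT Pcdha peak left, so the value describes that site and not the cluster. Pcdha minus Pcdhg ranged from -13.5 to -7.29 when each mutant was left out, with an exact permutation p = 0.0312 without R377H. When each mutant was left out, Pcdhb minus Pcdhg ranged from -4.17 to 6.77, turning without R342C (1.04) and without K365T (6.77), and Pcdha minus Pcdhb from -17.2 to -4.69. With equal numbers of top peaks they were -17.8 and -33.3, the latter again with Pcdha4 alone in Pcdha. Under the reciprocal overlap Pcdha minus Pcdhb was -1.39.

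FLAG kept percents under a reciprocal overlap of 50% were 0 in R339Q, 20 in R342C, 64 in S354F, 32 in K365T, 56 in R377C, 52 in R377H, 24 in Q418R and 0 in H455R. With the upper 50% they were 24 in R342C, 60 in S354F, 44 in R377H and 0 in H455R. With equal top peaks (8 WT peaks) they were 0 in R339Q, 25 in R342C and 37.5 in each of S354F, R377C and R377H. SMC3 kept percents under the reciprocal overlap were 18.5 in R339Q, 42.6 in R342C, 37 in S354F, 50 in K365T, 51.9 in R377C, 50 in R377H, 27.8 in Q418R, 48.1 in R448Q and 27.8 in H455R. Within 500 bp they were 70.4 in R339Q, 68.5 in S354F, 87 in R377C and 98.1 in R448Q. With the upper 50% they were 59.3 in R377C, 63 in R377H and 33.3 in H455R, and with equal top peaks 81.1 in R448Q. For the CTCF antibody, treated at untreated peaks was 29.4% (reciprocal) and 80.5% (equal top peaks), and untreated at treated peaks 35.4% (reciprocal). Windows of 250 and 1000 bp around gene starts, chosen after seeing the data as was the restriction to b1 lists, left every count over the 58 genes within 1.5 times; among single clusters, counts of 2 or fewer genes moved by more, such as SMC3 at Pcdhb in R339Q (2 genes, and 0 at 250 bp) and FLAG at Pcdha in R342C (1, and 2 at 1000 bp). Few WT peaks per cluster (4, 8 and 12, and fewer with equal top peaks) limit what can be seen.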
